A study of Mus musculus with 12 samples.

Results

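The genes described here encode 8 neuropeptide precursors: Cck (cholecystokinin), Npy (neuropeptide Y), Sst (somatostatin), Vip (vasoactive intestinal peptide), Penk (proenkephalin), Pdyn (prodynorphin), Tac1 (the precursor of substance P) and Crh (corticotropin-releasing hormone). They are 8 of the 19031 genes that had a probe naming them alone on the array, and every probe annotated to them was taken, 11 in all. A probe was tested if it had detection p-values below 0.05 on 3 or more of the 12 arrays. By that filter 9 probes of 7 genes were tested. The single Crh probe and 1 of the 2 Tac1 probes were detected on 0 of 12 arrays.

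Neuropeptides are cut from larger precursors, stored in dense-core vesicles and released by particular kinds of neuron to act on G-protein-coupled receptors. Sst, Npy, Vip and Cck mark classes of cortical and hippocampal neurons, many of them GABAergic interneurons, while Penk, Pdyn and Tac1 are strongly expressed by projection neurons of the striatum. Which of these peptides a piece of brain expresses therefore depends on the region it was taken from.

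The samples were brain gliomas of C57BL/6 mice, with 1 Illumina bead array per animal. Per the labels, all animals had floxed Tlx (Tlx f/f) and N-Tva, a Nestin-driven Tva receptor, and the Cre-positive animals a tamoxifen-inducible Cre under the Nestin promoter. The genotype labels number this Cre differently from sample to sample, while the series text names Nestin-CreERT2 throughout, and that name is assumed here. The 6 Tlx knockout gliomas came from Cre-positive animals aged 48 to 79 days (median 61.5), and the 6 Tlx intact gliomas from Cre-negative littermates aged 38 to 51 days (median 44). Tamoxifen was injected 2.5 weeks after tumours were started, and tissue was taken when neurological symptoms were severe. Cre acts only in cells that express Nestin, so a tumour piece can also hold cells that keep Tlx, and the Cre transgene itself is a further difference between the groups. Replicate numbers name arrays within a group and pair no animals.

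The arrays were alike in depth, with median signals of 134.5 to 161.3 intensity units and 50.8% to 54.8% of probes detected. Nr2e1, the current symbol of Tlx, ranged from 4.72 to 6.21 log2 units on knockout arrays and from 5.37 to 6.65 on intact arrays (difference -0.58, SE 0.26, limma adjusted p = 0.405). Its values overlapped, and no source used here says where its probe lies relative to the deleted part, so the probe checks no label. Oligodendrocyte progenitor markers, which many gliomas express, were all tested (10 of 10). They summed to between 59045 and 74608 normalized intensity units on knockout arrays and between 47340 and 69673 on intact arrays. Animal numbers in the labels form series, and the array columns of the deposited table fall into a first 6 (5 knockout, 1 intact) and a last 6 (1 knockout, 5 intact). Neither is called a batch in the labels, but both were tried as blocks, the label series and the column block. Of the label series only 1 holds both groups, so a difference with that block rests on 3 knockout and 2 intact arrays.

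In Tlx knockout gliomas 6 of the 7 tested neuropeptide genes (Cck, Npy, Sst, Penk, Tac1 and Pdyn) had a lower mean than in Tlx intact gliomas, and no difference passed the test. The 2 probes of the remaining gene, Vip, disagreed in sign, and where 7 genes are counted Vip stands for its brighter probe, which was lower. By limma, 0 of 7 had an adjusted p below 0.05, where 0.0141% of the 14155 genes tested did in either direction. At an unadjusted p below 0.05 the count was also 0 of 7, against 11.9% of all genes. The median difference of the 7 genes was -0.57 on the log2 scale, knockout minus intact, against -0.0026 over all genes, 50.4% of which were below 0. It was -0.83 over the 6 genes without Vip. The column block brought the median of the 7 genes to -0.046, with 5 of 7 below 0. The label series brought it to -0.78, with 6 of 7 below 0. The median was -0.28 both without background correction and in the authors' table. The groups overlapped for every one of the 7 genes, while 0.650% of all genes had groups without overlap. In bulk tissue, fewer cells of a type and less RNA per cell cannot be told apart.

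The spread between animals was wide. The SD within groups of each of the 7 genes exceeded that of 89.8% to 99.8% of all genes tested. Between the lowest and the highest of the arrays that detected it, normalized intensity ranged over 47.5-fold for Pdyn, 26.1-fold for Cck (11 arrays), 23.8-fold for Tac1, 22.5-fold for Sst and 6.11-fold for Npy. Penk, like all of these except Cck, was detected on all 12 arrays and ranged over less than Npy. The standard errors of the differences, 0.34 to 0.85 log2 units, reflect this spread.

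**Figure D1:**
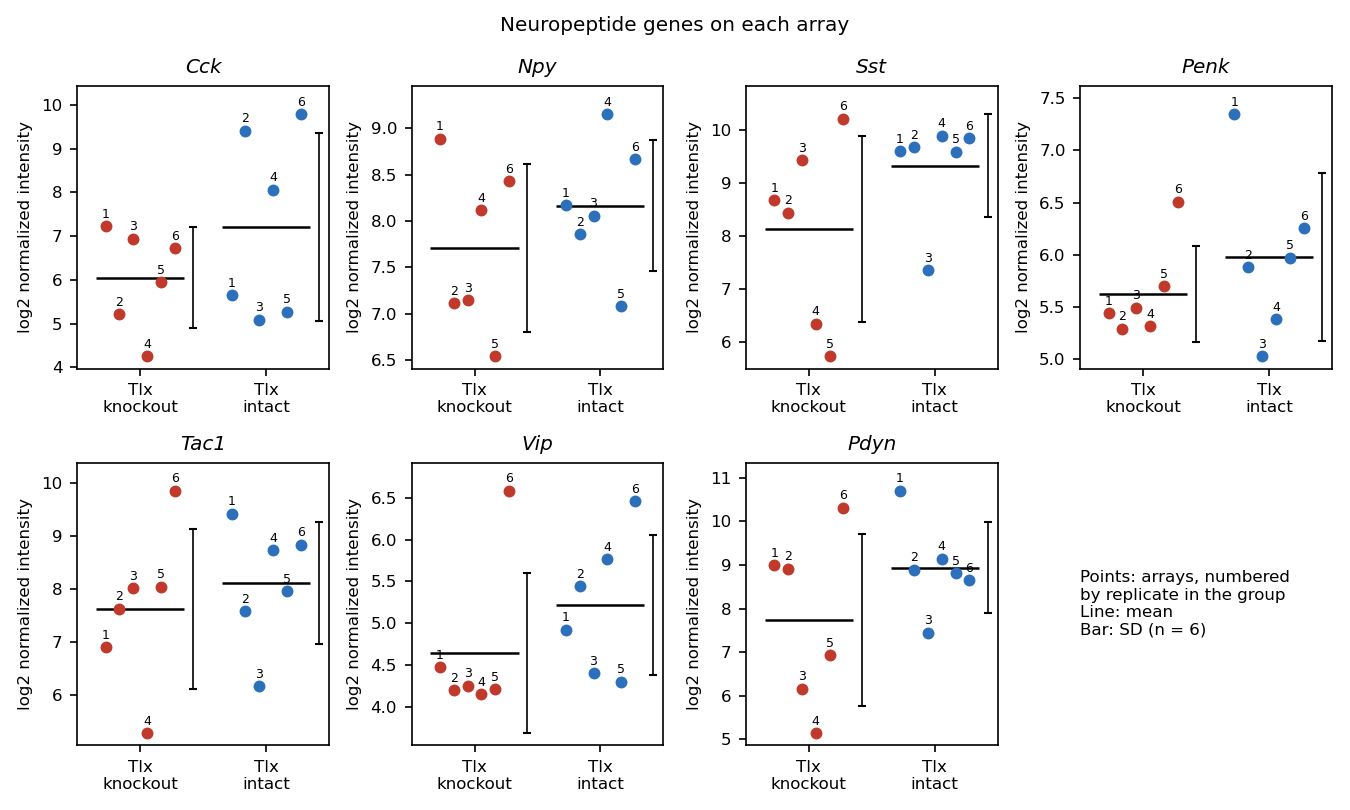
Each panel plots 1 neuropeptide gene as log2 normalized intensity, with Tlx knockout arrays on the left and Tlx intact arrays on the right, numbered by replicate. Lines are means and bars are SDs (n = 6 each). Knockout replicate 6 is the highest array for Sst, Tac1 and Vip, and the 2 groups overlap in every panel.

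Sst encodes somatostatin, an inhibitory peptide of GABAergic interneurons and of the hypothalamus. Its probe (ILMN_2729826; chromosome 16) was detected on all 12 arrays. It had a lowest value of 5.72, a median of 8.55 and a highest of 10.21 log2 units on knockout arrays, against 7.35, 9.63 and 9.89 on intact arrays. Knockout replicates 5 and 4 lay below every intact array, knockout replicate 6 lay above every intact array, and 5 of the 6 intact arrays lay within 9.59 to 9.89. The difference was -1.19 (SE 0.70, 95% interval -2.71 to 0.32, limma adjusted p = 0.529). Among array columns it was 0.67 within the first 6 (against intact replicate 3 alone) and -1.05 within the last 6 (knockout replicate 1 alone). The difference was -0.19 with the column block and -0.21 with age in the fit. It was -0.71 without knockout replicate 5, -0.79 without background correction and -0.78 in the authors' table.

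Cck encodes cholecystokinin, made by many pyramidal cells and a class of basket cells in cortex and hippocampus. Its probe (ILMN_1252990; chromosome 9) passed detection on 5 of 6 knockout arrays and on all 6 intact arrays. Values were 4.25 (lowest), 6.34 (median) and 7.22 (highest) log2 units on knockout arrays, against 5.09, 6.86 and 9.79 on intact arrays. Intact replicates 6, 2 and 4 were above every knockout array, while intact replicates 1, 3 and 5 lay inside the knockout range. The difference was -1.16 (SE 0.85, interval -2.99 to 0.67, adjusted p = 0.621 by limma). It was -0.65 without intact replicate 6 and -0.72 without intact replicate 2. Uncorrected for background it was -0.77, as in the authors' table, and its sign turned to 0.16 with the column block.

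Npy encodes neuropeptide Y, found in cortical interneurons and in the arcuate nucleus. Its probe (ILMN_2946520; chromosome 6) was detected on all 12 arrays, at 6.54, 7.63 and 8.89 log2 units (lowest, median and highest) in knockout gliomas and 7.09, 8.11 and 9.15 in intact gliomas. Intact replicate 4 was highest and knockout replicate 5 lowest. The ranges of the groups overlapped over most of their length. The limma difference was -0.46 (SE 0.41, interval -1.34 to 0.43, adjusted p = 0.694), and it was 0.058 with the column block and -0.12 with age in the fit. It was -0.70 without knockout replicate 1, -0.22 without knockout replicate 5 and -0.26 without intact replicate 4, and -0.28 without background correction and in the authors' table.

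Vip encodes vasoactive intestinal peptide, a marker of interneurons that inhibit other interneurons and of the suprachiasmatic nucleus. Its brighter probe (ILMN_2943387; chromosome 10) passed detection on 1 of 6 knockout arrays and on 4 of 6 intact arrays. It read 4.15, 4.24 and 6.58 log2 units (lowest, median and highest) in knockout gliomas and 4.31, 5.19 and 6.45 in intact gliomas. Knockout replicate 6 alone carried the signal in its group, and intact replicates 6, 4 and 2 were the next highest. The difference of -0.57 (SE 0.45, interval -1.54 to 0.40, limma adjusted p = 0.652) therefore compares arrays that are mostly near background. The other Vip probe (ILMN_1243637) went the opposite way, with a difference of 0.36 (SE 0.18, interval -0.032 to 0.75, adjusted p = 0.435 over all probes, of which 0.0107% passed). It passed detection on 4 of 6 knockout arrays and on 1 of 6 intact arrays, at a median of 5.13 log2 units in knockout and 4.64 in intact gliomas, and its highest array was knockout replicate 3. The 2 Vip probes thus disagreed both in sign and in which arrays were high, so no direction is given for Vip as a gene.

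The opioid precursors came next. Pdyn encodes prodynorphin, the source of the dynorphins that act on the kappa opioid receptor, and is found in striatal, hippocampal and hypothalamic neurons. Its brighter probe (ILMN_2783873; chromosome 2) was detected on all 12 arrays, with 5.14, 7.92 and 10.32 log2 units (lowest, median and highest) in knockout gliomas against 7.44, 8.85 and 10.71 in intact gliomas. Knockout replicates 4, 3 and 5 lay below every intact array, and knockout replicate 6 was second only to intact replicate 1. The difference was -1.20 (SE 0.78, interval -2.88 to 0.49, limma adjusted p = 0.582), and it was -0.093 with the column block and -0.33 with age in the fit. Without knockout replicate 4 it was -0.67, as in the authors' table, and without background correction -0.68. The dimmer probe (ILMN_2767871), seen on 3 of 6 knockout arrays and on all 6 intact arrays, had a difference of -0.65 (SE 0.30, interval -1.30 to -0.0071, adjusted p = 0.388 over all probes). Its unadjusted p was 0.0478, and 1 of the 9 tested probes was thus below 0.05, against 12.8% of all probes. The difference of the dimmer probe was -0.15 with age in the fit, -0.17 without background correction and -0.16 in the authors' table. It was -0.82 with the label series. For this probe too, intact replicate 1 was the highest array.

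Penk encodes proenkephalin, the source of the enkephalins of striatal projection neurons of the indirect pathway. Its probe (ILMN_2719921; chromosome 4) was detected on all 12 arrays, with 5.29, 5.47 and 6.51 log2 units (lowest, median and highest) in knockout gliomas and 5.03, 5.93 and 7.35 in intact gliomas. Intact replicate 1 and knockout replicate 6 stood above the other 10 arrays, which lay between 5.03 and 6.25. The difference was -0.35 (SE 0.34, interval -1.07 to 0.37, limma adjusted p = 0.710). Without intact replicate 1 it was -0.079, with the column block -0.046, without background correction -0.14 and in the authors' table -0.15. It was -0.53 without knockout replicate 6, -0.55 without intact replicate 3, -0.54 with age and -0.78 with the label series.

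Tac1 encodes the precursor of substance P and neurokinin A, peptides of striatal neurons of the direct pathway and of many hypothalamic and brainstem neurons. Its detected probe (ILMN_1251000; chromosome 6) read 5.28, 7.82 and 9.86 log2 units (lowest, median and highest) in knockout gliomas and 6.17, 8.34 and 9.42 in intact gliomas, on 12 of 12 arrays detected. Knockout replicate 6 was highest, intact replicate 1 next, and knockout replicate 4 and intact replicate 3 lowest. The difference was -0.49 (SE 0.67, interval -1.93 to 0.94, limma adjusted p = 0.804), with 1.60 within the first 6 array columns and -1.60 within the last 6. Intact replicate 3 was the only intact array of the first 6, and knockout replicate 1 the only knockout array of the last 6. The Tac1 difference was 0.013 with the label series, -0.0026 with the column block, -0.99 with age in the fit and -0.17 with array weights. It was -0.27 without background correction and -0.25 in the authors' table. Without knockout replicate 4 it was -0.025, without knockout replicate 6 -0.94, without intact replicate 1 -0.23 and without intact replicate 3 -0.88. The second Tac1 probe (ILMN_1219905), annotated to another transcript record, stayed between 109.0 and 137.9 raw intensity units on all arrays and was not detected.

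Crh encodes corticotropin-releasing hormone, the hypothalamic peptide that drives the stress axis. Its probe (ILMN_1233069; chromosome 3) gave raw signals of 117.5 to 140.5 units on knockout arrays and 98.4 to 140.6 on intact arrays and was not well above background on any, so it was not tested.

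The arrays differed in which neuropeptide genes were high, and the same arrays recurred across genes. Ranks below run from 1, the highest of the 12 arrays. Knockout replicate 6 ranked 1 for Sst, Tac1 and Vip and 2 for Penk and Pdyn, but 6 for Cck. Intact replicate 1 ranked 1 for Penk and Pdyn and 2 for Tac1, but 8 for Cck. Intact replicate 6 ranked 1 for Cck and 2 for Vip, while intact replicate 2 ranked 2 for Cck and 9 for Tac1. Knockout replicate 4 ranked 12 for Tac1 and Pdyn and 11 for Sst, and did not detect Cck, yet it ranked 6 for Npy. Intact replicate 3 ranked 10 to 12 for Cck, Sst, Penk and Tac1 and 7 for Npy.

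Marker lists of brain regions, none of which holds a member, moved over the same arrays. Each list mean is the average, over the tested genes of the list, of the log2 deviation from the mean of the 12 arrays. The striatal projection neuron list (11 of 14 genes tested, such as Drd1, Rgs9 and Ppp1r1b) was 0.90 on knockout replicate 6 and 1.43 on intact replicate 1, the 2 arrays that led for Penk, Pdyn and Tac1. On the other knockout arrays it was at most -0.29. Not every gene of the list followed this: Drd2 was at most 4.94 log2 units on knockout arrays, and Scn4b was highest on intact replicate 6. The pattern was also not particular to striatal genes. The microglia and macrophage list was highest on the same arrays (1.03 on intact replicate 1 and 0.70 on knockout replicate 6). The forebrain GABA neuron list (12 of 16, such as Gad1, Gad2 and Slc32a1) was -1.51 and -1.46 on knockout replicates 4 and 5 and -0.84 on intact replicate 3, the arrays with the least Sst. Those arrays were also the lowest for the general neuron markers taken up below (-1.40, -0.99 and -1.07). The thalamic list (10 of 12) reached 1.77 and 1.02 on intact replicates 6 and 2, the arrays with the most Cck, where the cortical and hippocampal excitatory list (13 of 15) was 0.77 and 0.72. Both arrays were also the highest for general neuron markers (1.66 and 1.06). Intact replicate 6 led the GABA neuron and myelin lists too (0.98 and 1.08), so these pairings are not specific to a region. The hypothalamic list (10 of 15) was highest on intact replicate 4 (1.52) and knockout replicate 6 (1.34), and the midbrain and hindbrain list (8 of 16) on intact replicate 6 (2.23). The share that regional tissue has in the neuropeptide differences was not tested.

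**Figure D2:**
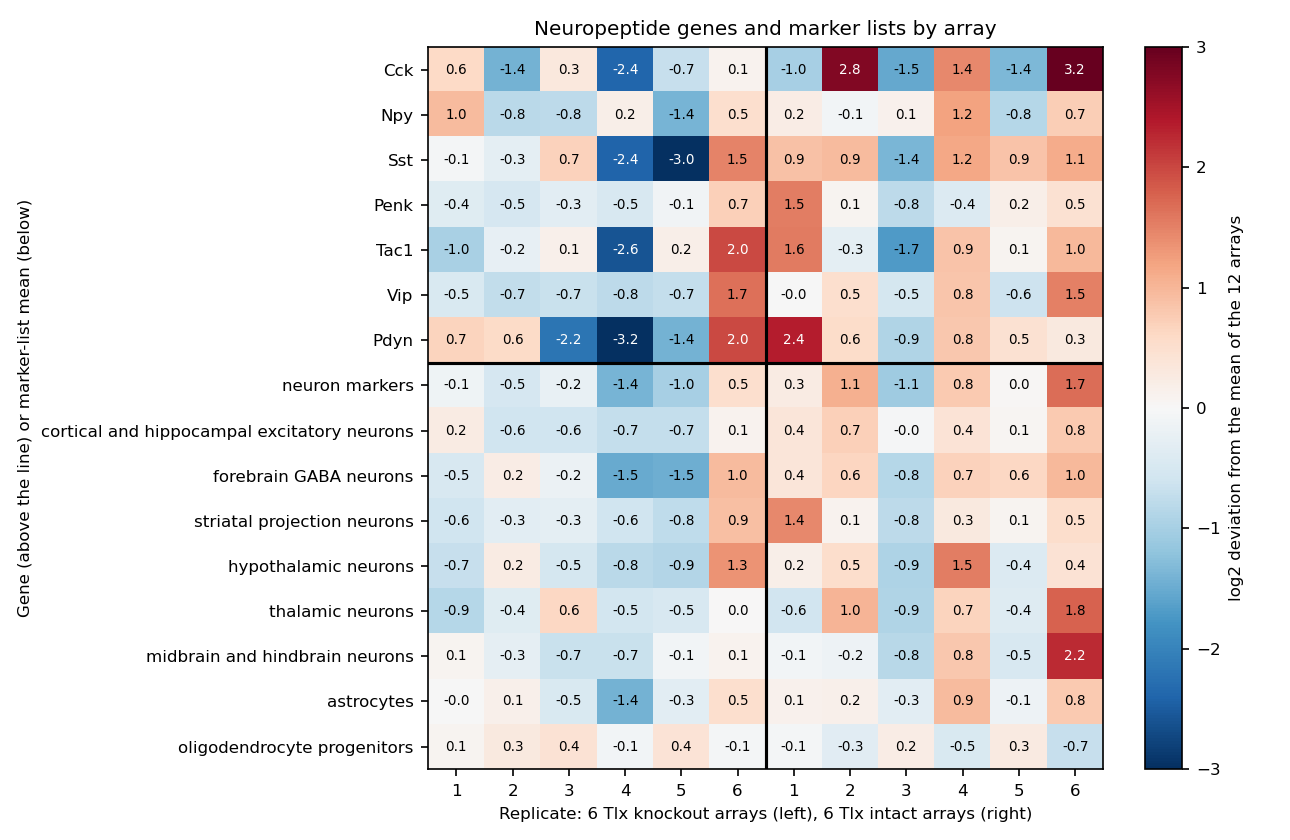
Log2 deviation from the mean of the 12 arrays is shown by colour and number for the 7 tested neuropeptide genes (above the line) and for marker-list means (below), with the 6 Tlx knockout arrays on the left and the 6 Tlx intact arrays on the right. Knockout replicate 6 and intact replicate 1 are high for Penk, Tac1, Pdyn and the striatal list. Knockout replicates 4 and 5 and intact replicate 3 are low for Sst, the GABA neuron list and the neuron markers.

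All 7 neuropeptide genes, Vip by its brighter probe, had a positive slope on the neuron-marker mean, and Cck, Sst and Vip passed the test. That mean was taken over 14 of 20 general neuron genes (the Snap25 probe did not pass the filter, and 5 had no probe naming them alone), which hold none of the 8. All 14 had a lower mean in knockout gliomas, with a median difference of -1.02 and 0 past the threshold. Of all genes tested, 50.4% were below 0. For Slc12a5, a gene of this list, only intact gliomas (4) gave a detected signal. The filter thus favoured a lower knockout mean for Slc12a5, whose direction is no evidence of a difference. The summed intensity of the 14 genes ran from 4749 to 25184 units on knockout arrays and from 6703 to 56798 on intact arrays. The mean itself ran from -1.40 (replicate 4) to 0.50 (replicate 6) on knockout arrays and from -1.07 (replicate 3) to 1.66 (replicate 6) on intact arrays. A slope of 1 means that the gene changes by 1 log2 unit for each log2 unit of the neuron markers, at a fixed genotype.

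The slope was 1.80 for Cck (SE 0.30, interval 1.15 to 2.45, limma adjusted p = 0.00381), 1.38 for Sst (SE 0.29, interval 0.75 to 2.02, adjusted p = 0.0163) and 0.87 for Vip (SE 0.19, interval 0.46 to 1.29, adjusted p = 0.0191). Thus 3 of 7 passed with a slope above 0, against 3.86% of all genes tested, and the median slope was 1.04 against -0.018 over all genes. The slopes of Tac1 (1.11, adjusted p = 0.0826), Pdyn (1.04, 0.227), Npy (0.38, 0.460) and Penk (0.34, 0.409) did not pass in the same limma fit. That a slope misses the threshold does not show that a gene is unrelated to the neuron markers. Cck kept its call in every alternative run. The Sst slope lost it with the label series as a block (1.49, adjusted p = 0.164), with the column block (1.40, 0.0655) and without knockout replicate 4 (0.0589), knockout replicate 6 (0.0634) or intact replicate 3 (0.109). The Vip call was lost with the label series (1.07, adjusted p = 0.0731). Without intact replicate 6 the other Vip probe had the higher mean and took its place, with a slope of 0.029, and the first probe kept in place gave 0.82 (adjusted p = 0.106).

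With the neuron-marker mean in the fit, the differences between the groups were smaller for 6 of the 7 genes and turned sign for 4, Vip among them by its brighter probe. They became 0.48 for Cck (SE 0.53), 0.064 for Sst (SE 0.52), 0.52 for Tac1 (SE 0.59) and 0.23 for Vip (SE 0.34), and -0.11 for Npy (SE 0.46), -0.046 for Penk (SE 0.37) and -0.25 for Pdyn (SE 0.80). The adjusted p-values of the 7 genes in this limma fit were 0.871 or more, where 0.00706% of all genes passed, and the median difference was 0.064. Leaving out Vip, 3 genes were above 0 and 3 below 0 in this fit, and all 7 estimates lay within 1 SE of 0.

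**Figure D3:**
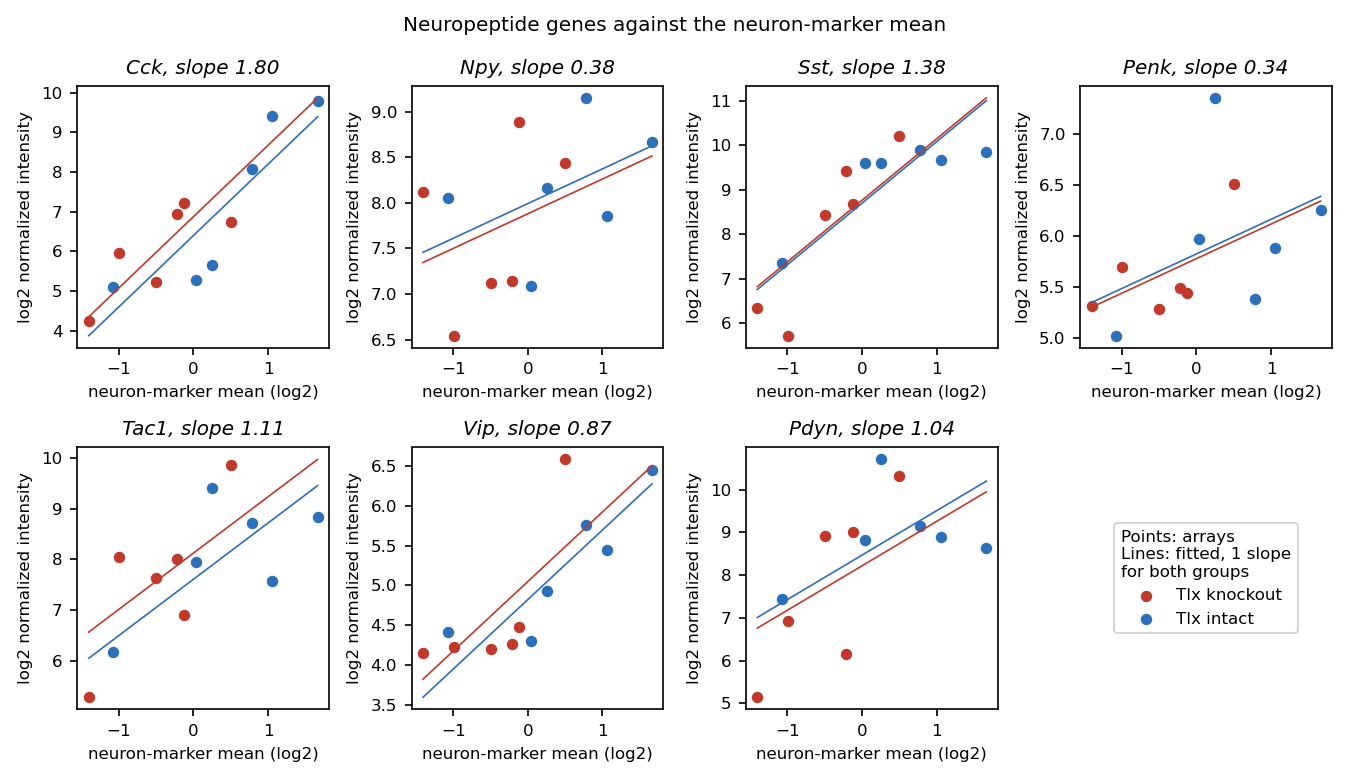
Each panel plots 1 neuropeptide gene (log2 normalized intensity) against the neuron-marker mean of the same array (log2 deviation), with Tlx knockout arrays in red, Tlx intact arrays in blue and fitted lines of 1 common slope. The slopes are 1.80 for Cck and 1.38 for Sst, and shallower for Npy (0.38) and Penk (0.34), whose slopes did not pass.

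Genes whose pattern over the 12 arrays was most like each neuropeptide gene, by Pearson r and as a description only, differed from gene to gene. Arrays share their tumour and normal tissue in all these genes. Nearest to Cck were Olfm1 (r = 0.98), Syn1 (0.94), Rgs11 (0.94), Thy1 (0.94) and Arhgap44 (0.94), of which Syn1 and Thy1 are in the neuron list. Nearest to Sst were Gad2 (r = 0.97), Slc32a1 (0.96), Syt1 (0.93), Gad1 (0.92) and Rasgrp1 (0.91). Gad1 and Gad2 make GABA and Slc32a1 loads it into vesicles. Nearest to Penk were Mrpl21 (r = 0.88), Bcl11b (0.88), Drd1 (0.86), Ppp1r1b (0.85) and Haao (0.85). Bcl11b, Drd1 and Ppp1r1b are genes of striatal projection neurons.

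Nearest to Pdyn were Id4 (r = 0.96), Gli3 (0.94), Pdpn (0.94), Gpr83 (0.93) and Gstm1 (0.93). Nearest to Tac1 were Lrpap1 (r = 0.91), Slc25a34 (0.89), Igsf1 (0.89), Ypel3 (0.89) and Ppp1r9a (0.89). Nearest to Npy were Grhl1 (r = 0.87), Zan (0.86), Rgs6 (0.86), Gdpd5 (0.86) and Bid (0.85). None of the genes nearest to Pdyn, Tac1 and Npy is in the striatal list or any other marker list used here. Vip was detected on 5 arrays and was not included, as 6 were required.

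Promoters are shown for the 3 genes whose slope on the neuron markers passed, because Sst, Vip and Cck are classic genes of the cAMP response, in which the factor CREB binds the cAMP response element (CRE). The sequences are from RefSeq, build GRCm38.p6, and cover 250 bases before and 50 after each gene start, 5′ to 3′ on the gene's strand. They are Sst at chr16:23890795-23891094 (minus strand), Vip at chr10:5638968-5639267 (plus strand) and Cck at chr9:121495645-121495944 (minus strand). Capitals mark the full CRE TGACGTCA, its shorter core TGACG on either strand (CGTCA when read on the opposite strand) and the TATA box TATAAA.
Sst: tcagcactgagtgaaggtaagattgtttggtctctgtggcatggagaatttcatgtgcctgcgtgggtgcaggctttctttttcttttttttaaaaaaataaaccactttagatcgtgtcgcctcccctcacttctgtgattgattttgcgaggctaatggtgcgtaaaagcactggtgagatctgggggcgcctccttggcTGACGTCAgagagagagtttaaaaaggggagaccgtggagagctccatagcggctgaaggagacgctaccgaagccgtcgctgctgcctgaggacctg
Vip: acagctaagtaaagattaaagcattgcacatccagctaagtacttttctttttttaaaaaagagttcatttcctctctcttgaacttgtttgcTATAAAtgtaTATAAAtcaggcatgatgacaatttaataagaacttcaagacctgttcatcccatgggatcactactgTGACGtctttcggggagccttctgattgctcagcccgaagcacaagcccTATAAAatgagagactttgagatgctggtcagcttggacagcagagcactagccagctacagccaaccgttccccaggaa
Cck: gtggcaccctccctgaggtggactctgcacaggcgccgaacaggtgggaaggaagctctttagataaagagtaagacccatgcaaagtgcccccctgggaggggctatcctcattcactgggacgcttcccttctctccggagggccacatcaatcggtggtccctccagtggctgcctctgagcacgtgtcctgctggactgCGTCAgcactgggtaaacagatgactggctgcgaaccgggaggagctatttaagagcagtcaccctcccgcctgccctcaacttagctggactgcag

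In this window Sst held the full CRE, whose first base is 48 bases before the start, and 1.79% of the 32851 promoters in the table hold it on either strand. The full element contains the core TGACG on both strands. Vip held TGACG 79 bases before the start, Cck held it on the opposite strand 47 bases before, and Tac1, not printed, held it 197 and 43 bases before, where 20.8% of all promoters hold it. Vip also had TATAAA at 3 positions (157, 147 and 30 bases before the start), a motif of 8.32% of promoters, searched on the gene's strand only. None of these letters was found in the windows of Npy and Pdyn. These matches describe the sequence and were not tested against the arrays.

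Receptors of the 8 peptides were mostly near background. Of 22 receptor genes 10 were tested, 10 had probes that did not pass the filter and 2 had no probe naming them alone. Of the 10, 7 had a difference below 0 and 3 above, where 50.4% of all genes tested were below 0. None passed, and the median difference was -0.26. By limma, 2 of the 10 had an unadjusted p below 0.05, against 11.9% of all genes tested. They were the somatostatin receptors. Sstr1, an inhibitory receptor of somatostatin, read 4.36, 4.44 and 5.13 log2 units (lowest, median and highest) in knockout gliomas and 4.30, 6.62 and 7.48 in intact gliomas, and passed detection on 1 of 6 knockout arrays and on 4 of 6 intact arrays. Its difference was -1.63 (SE 0.50, limma adjusted p = 0.234). The intact arrays alone met the filter, so this direction is no evidence of a difference. The highest arrays of Sstr1 were intact replicates 5 and 3, of which replicate 3 had the least Sst of its group. The slope of Sstr1 on the neuron markers was -0.44 (limma adjusted p = 0.492). Sstr2, the other somatostatin receptor tested, read 4.34, 5.67 and 6.48 in knockout and 5.31, 6.42 and 8.20 in intact gliomas (difference -1.24, SE 0.46, adjusted p = 0.315).

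The slopes on the neuron markers passed for 4 of the 10 receptor genes, all above 0, against 3.86% of all genes tested. They were 1.21 for Cckbr, the main brain receptor of cholecystokinin (limma adjusted p = 0.000251), 0.86 for Sstr2 (0.0293), 0.68 for Npy1r (0.0126) and 0.54 for Npy5r (0.00652). The differences between the groups were -0.22 for Cckbr, -0.30 for Npy1r, 0.10 for Npy2r and -0.35 for the brighter probe of Npy5r, the last 3 being receptors of neuropeptide Y. That Npy5r probe passed detection on 2 of 6 knockout and 3 of 6 intact arrays, and the other Npy5r probe had a difference of 0.19, of opposite sign. The differences were -0.080 for Tacr1 and -0.45 for Tacr3, receptors of tachykinins, and 0.057 for Oprk1, the dynorphin receptor. The brightest of the 3 tested probes of Vipr1, a receptor of vasoactive intestinal peptide, passed detection on 3 of 6 knockout arrays and on 0 of 6 intact arrays. As a bound, its mean was at least 1.12-fold higher in knockout gliomas (limma adjusted p = 0.587). This probe met the filter through knockout arrays alone, so its direction is no evidence of a difference. The other 2 Vipr1 probes differed by 0.030 and -0.16. None of these differences passed.

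**Figure D4:**
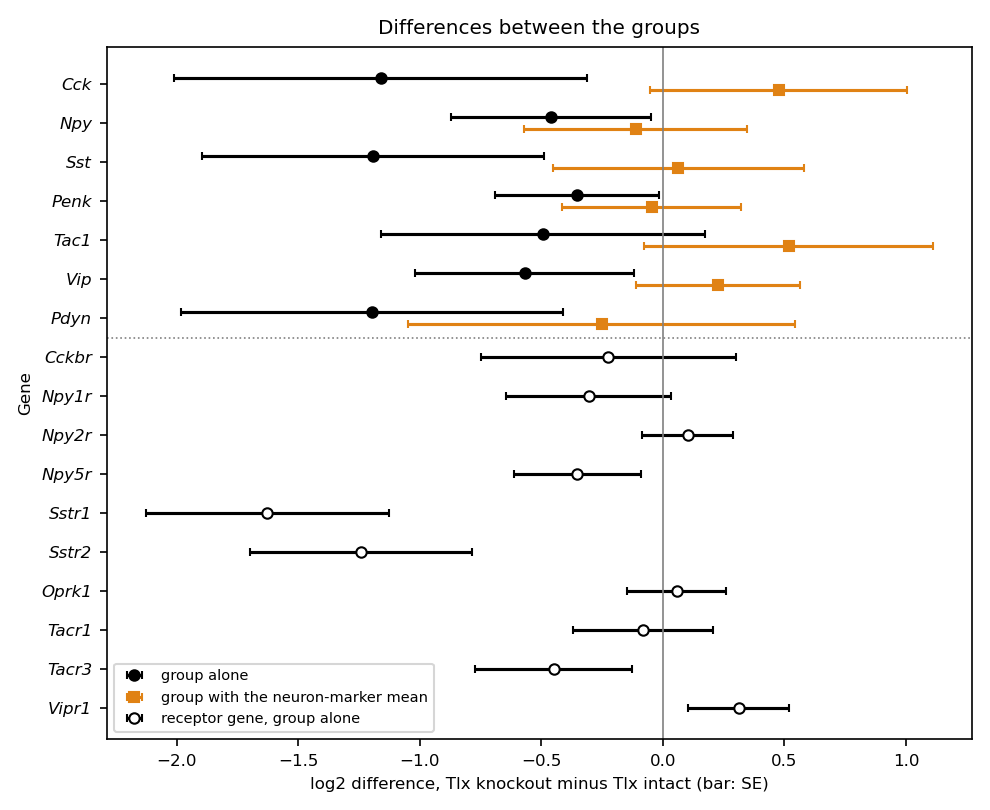
Log2 differences, Tlx knockout minus Tlx intact, are plotted with their SE for the 7 tested neuropeptide genes (above the dotted line) from the fit on genotype alone (black circles) and with the neuron-marker mean (orange squares), and for 10 receptor genes (open circles). The 7 black circles lie between -1.20 and -0.35, and the orange squares lie on both sides of 0.

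The genes that make and store neuropeptides were given by lists. Of 10 processing enzymes 7 were tested, 5 with a difference below 0 and 2 above, and 0 passed, where 50.4% of all genes tested were below 0. Qpct, the cyclase that forms the N-terminal pyroglutamate of some peptides, was higher on average in knockout gliomas by 0.77 (SE 0.18, limma adjusted p = 0.196). It read 11.33, 11.68 and 12.09 log2 units (lowest, median and highest) in knockout gliomas and 10.33, 11.02 and 11.25 in intact gliomas, so its groups did not overlap, as for 0.650% of all genes. Of 13 dense-core vesicle genes 11 were tested, 8 below 0 and 3 above, with 0 past the threshold and a median of -0.54. Their slopes on the neuron markers passed above 0 for 5 of the 11, against 3.86% of all genes tested. Chgb, a granin of the vesicle core, was among them (1.21, limma adjusted p = 5.35e-05). By limma, 3 of the 11 group differences had an unadjusted p below 0.05, against 11.9% of all genes tested. These were the 3 differences above 0, and none passed. The genes were Rab3c, a small GTPase of vesicles (0.66, adjusted p = 0.251), Ptprn (0.51, 0.292) and Ica1 (0.30, 0.379). Ptprn is a membrane protein of the vesicle. The second tested probe of Rab3c differed by only 0.05, while those of Ptprn and Ica1 differed by 0.50 and 0.34.

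Of 36 other neuropeptide genes 23 were tested, 15 with a difference below 0 and 8 above, and 0 passed. Of all genes tested, 50.4% were below 0. Among the 15, the genes Cort and Ghrh were detected on 0 of 6 knockout arrays, and on 4 and 3 of 6 intact arrays. They met the filter through intact arrays alone, so their direction is no evidence of a difference. Pmch, the precursor of melanin-concentrating hormone, a peptide of the lateral hypothalamus, read 4.28, 4.62 and 6.14 log2 units (lowest, median and highest) in knockout gliomas and 4.19, 7.03 and 11.07 in intact gliomas. Its difference was -2.48 (SE 1.04, limma adjusted p = 0.375), and intact replicates 4, 6 and 2 were its highest arrays. Crhbp, which binds corticotropin-releasing hormone and is made by many somatostatin interneurons, had a difference of -1.12 (SE 0.45, adjusted p = 0.357), highest on intact replicates 6 and 4.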

How the data were processed

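Total RNA of 12 gliomas, kept 4 h in RNAlater, was hybridised as biotinylated cRNA to Illumina bead arrays, per the labels' protocols. Per the file headers, the authors deposited non-normalized signal intensities and detection p-values for 45135 probes. They also deposited a table of normalized intensities. The sources used here give neither its normalization nor how the detection p-values were made. The number of columns of other samples was 0. Of the probes 34772 had 1 gene symbol in the platform annotation, 18 several and 10345 none there. Symbols were updated through Entrez identifiers (34694 matched) against RefSeq of GRCm38.p6.

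Signals were processed with neqc of limma 3.58.1 in R 4.3.3 (normal-exponential background from detection p-values, offset 16, quantile normalization, log2). The offset draws differences of dim probes toward 0. Probes with detection p below 0.05 on at least 3 arrays were kept (28002), and a gene was its probe with the highest mean (14155 genes, 5779 with several probes). Groups were compared by two-sided tests in lmFit and eBayes, and p-values were adjusted by Benjamini-Hochberg over all genes, or over all probes where stated, at 0.05. Intervals cover 95%. A second model held genotype and the neuron-marker mean. A probe detected on no array of a group has only a bound, "at least N-fold": the mean of the brighter group against a floor averaged over the dimmer one, which on each array is its own value or the lowest detected value, whichever is higher. Scripts were tested on simulated data. The labels do not say more of replicates than that each array is 1 animal. Genes named were the 8 members, the tested receptors, at most 4 genes a list of smallest p, and the 5 genes nearest to each member detected on at least 6 arrays; not all are reported. Members and lists were chosen with earlier results of these data known. Alternatives were the background correction, the scaling, the authors' table, the filter, the probe rule, array weights, age, the label series, the column block, the neuron-marker mean and leaving out each array. The number of arrays limits the precision.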

Additional observations from a re-analysis of the deposited data

Results flagged for a closer look

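In groups of 6 arrays, the highest or lowest array was set against the gap to its nearest neighbour by Dixon's test at 95%. Of 82 groups of values examined, 6 had an array that stood apart, where chance gives about 1 in 20.

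Sst was lowest among intact gliomas on replicate 3 (7.35 log2 units, with the next at 9.59), and the forebrain GABA neuron list was lowest on the same array (-0.84, with the next at 0.37). Knockout replicate 6 stood above the other knockout arrays for Penk (6.51, with the next at 5.70), for the brighter Vip probe (6.58, with the next at 4.48) and for the striatal projection neuron list (0.90, with the next at -0.29). The receptor gene Sstr1 was highest among knockout gliomas on replicate 5 (5.13, with the next at 4.63). Without knockout replicate 6 the differences of Vip and Penk were -0.94 and -0.53, and without intact replicate 3 that of Sst was -1.59.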

How the results depend on the processing

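No paired analysis was possible because the labels number no replicates across the groups. No neuropeptide gene passed the threshold for genotype in any alternative. The differences of Penk and Pdyn stayed below 0 in all of them, and those of Cck, Npy, Sst and Tac1 in every alternative except those named here, where the cause was not tested. The other Vip probe stayed above 0 throughout (0.071 to 0.48). The sign turned for Tac1 with the label series (0.013), for Cck and Npy with the column block (0.16 and 0.058), and for Cck, Sst, Tac1 and Vip with the neuron-marker mean (0.48, 0.064, 0.52 and 0.23). With single arrays left out, Vip ran from -0.94 to 0.39, the upper value without intact replicate 6, where the other Vip probe took the place of the first by construction. The first probe alone ran from -0.94 to -0.32.

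Among slopes on the neuron markers, Sst and Vip lost their call with the label series (1.49 and 1.07), and Sst with the column block (1.40). With single arrays left out, the slopes ran from 1.21 to 1.72 for Sst, from 0.029 to 1.13 for Vip and from 0.85 to 1.30 for Tac1, which gained a call without intact replicate 1 (adjusted p = 0.0431) or 2 (0.0469).

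Over all genes, 1 was higher and 1 lower by limma. The higher count was 2 without the filter and 0 in every other alternative on the full set of arrays except cyclic loess. Over all probes, 1 higher became 0 except under cyclic loess, and 2 lower became 1 except under median scaling and cyclic loess. With single arrays left out, genes ranged from 0 to 88 higher and from 1 to 15 lower, and probes from 0 to 228 higher and from 1 to 55 lower, highest without intact replicate 1. Slopes below 0 passed for 131 genes, and for 225 without background correction, 45 with median scaling, 83 with cyclic loess, 200 in the authors' table, 39 with array weights, 16 with the label series and 53 with the column block (16 to 181 with arrays left out). Slopes above 0 passed for 547 genes, and for 156 with the label series (191 to 607 with arrays left out). Signals near background limit Vip, Penk and most receptor genes.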
